A study of Xenopus laevis with 30 samples.

Results

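Animal cap explants of the frog Xenopus laevis whose libraries carry the number 1 were compared with those that carry the number 3, here called set 1 and set 3. The rule took 8 of the 12 libraries of the study, 4 with each number, and all 49109 entries of the count tables. Library number was taken from the run titles. What the number stands for (a clutch, a day, a dish) is nowhere stated in the sources used, so everything that differed between the sets cannot be told apart from the number.

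All embryos of both sets had received mRNA for noggin, which blocks BMP ligands, and for the ligand wnt8, at the 2-cell stage. Explants from embryos with these mRNAs alone are called NW. The NWS embryos carried in addition a morpholino, an antisense oligonucleotide, against Sf3b4, a subunit of the splicing complex SF3b. Caps were cut at stage 8 to 9 and grown for 8 hours, and the labels describe RNA taken from individual explants, not from pools. The kind of morpholino is not given. Each set held 1 NW and 1 NWS library with ribosomal RNA removed (depleted) and 1 of each without that step (undepleted).

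The animal cap is the prospective ectoderm of the blastula. BMP signalling in the embryo directs it to epidermis, and blocking BMP opens the way to neural tissue, or, together with a Wnt signal, to neural crest, the migratory cells that arise at the border of the neural plate. The young epidermis of the frog has an outer layer rich in keratin with mucus-secreting goblet cells, and an inner layer that holds precursors of other skin cells. Its programme is led by transcription factors such as tp63 and the grainyhead-like (grhl) family, and keratins, desmosome proteins and surface glycoproteins are its usual markers.

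Depleted and undepleted libraries have the same names in both tables and may come from the same RNA, which the labels do not say. Across 10681 entries, the deviation of a library from the mean of its preparation correlated between preparations at 0.312 to 0.605 for the same name and at -0.295 to -0.027 for other names. The counts of a name were therefore added up, giving 4 samples, 2 in each set. Total counts ran from 351902 to 4273985 per library, of which the entries LOC108705792 and ccdc50.L took 19.3% to 87.8%. Outside the 5 dominant entries 127172 to 2803732 counts were left, the most in NW library 3 of either preparation and the fewest in depleted NWS library 1. A floor of 3 counts was worth 0.257 to 5.76 CPM, counts scaled to the normalised library size. It covers counting error only.

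The entries that passed were mainly those high in set 1 and close to absent in set 3. Of 11931 entries tested 63 (0.528%) passed the quasi-likelihood test of edgeR (adjusted p below 0.05, treatment as covariate). Of these 60 (0.503%) were higher in set 1 and 3 (0.0251%) were lower. Over all tested entries the median log2 fold change was -0.04 and 48.7% were higher in set 1, which the normalisation centres near 0. Among the 60 entries, 14 had no counts in any set 3 library, 33 had none in either NWS library of set 3, and 16 had none in either NW library of set 3, the deepest of all. In 55 of the 60, and in all 3 lower entries, the 4 libraries of one set did not overlap with the 4 of the other. Such separation was seen in 5.57% of tested entries with set 1 above and in 5.79% with set 3 above. The passing entries were selected on these same counts, so their separation adds no support of its own. At an unadjusted p under 0.05 in edgeR, 426 entries were higher and 312 lower in set 1. The normalised size was 24435659 for the summed NW sample of set 3 and 2365231 to 4671095 for the other samples. Absence is therefore easier to show in set 3 than in set 1. The part of depth in the excess of higher entries was not tested.

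The fit of 8 separate libraries, with treatment and preparation as covariates, passed 298 of 10681 entries (2.79%), 222 higher (2.08%) and 76 lower (0.712%) in set 1. Its p-values are too small if the preparations share RNA. It passed 58 of the 63 entries, and the other 5 were not tested in it. The labels speak of biological replicates, but each side held 2 samples, 1 NW and 1 NWS. With treatment in the fit, p-values rest on how the set difference varied between NW and NWS, largely shared across entries. No spread between replicates of 1 treatment within a set was measured. The biological coefficient of variation was 0.610.

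**Figure D1:**
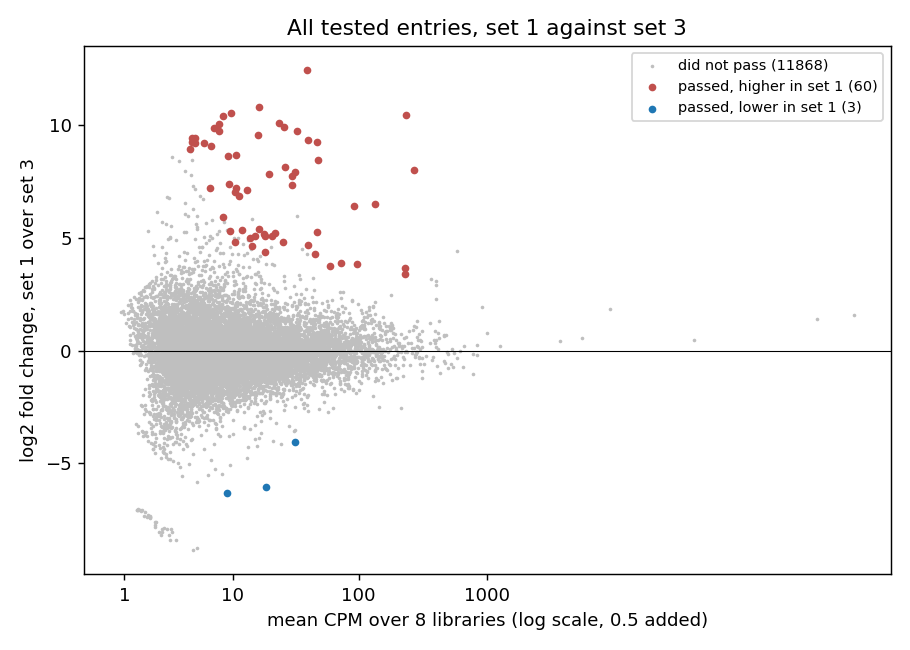
Log2 fold change of set 1 over set 3 from the summed counts (vertical axis) against mean CPM over the 8 libraries (log scale) for the 11931 tested entries. Red points are the 60 that passed higher in set 1 and blue points the 3 that passed lower; the points far below 0 at low CPM are entries with no counts in set 1, and none of those passed.

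Epidermal genes made the clearest group. Of 42 entries of the epidermal list 22 had enough counts to be tested and 20 had not, 7 of these with no count in any of the 8 libraries. Among the 22, 19 were above 0 and 3 below 0 in log2 fold change, with a median of 2.77 against -0.04 over all entries. The test passed 6 of them, all higher in set 1. The 8-library fit passed 11, DESeq2 9 and limma-voom 7. Over all entries these passed 298 of 10681, 151 of 11005 and 96 of 11931. The sets did not overlap in 10, all with set 1 above, against 5.57% of all entries. Only 12 of the 22 belong to the list as first spelled, with the same median of 2.77. Both copies of tp63, described below, lie at this value, so the equal medians say little about the keratins. Spellings added from entry names brought in the others, among them krt12.S, krt.S and krt.L of the 6. At an unadjusted p under 0.05 there were 13 of 22, all higher in set 1, against 738 of all 11931 entries (6.19%). Added up over the whole list, the level was 1273 CPM (NW depleted), 1491 (NWS depleted), 1429 (NW undepleted) and 1543 (NWS undepleted) in set 1. In set 3 it was 176, 222, 173 and 157 CPM in the same order. All 4 libraries of set 1 stood far above all of set 3, 1434 ± 117 against 182 ± 27.8 CPM (SD over 4 libraries from 2 samples), a 7.88-fold difference. Much of the set 1 sum came from entries brought in by the added spellings. krt.S, krt12.S and krt.L averaged 426, 264 and 76.7 CPM in set 1 and 32.4, 3.00 and 2.74 CPM in set 3. The sum over the list as first spelled was not taken. The matched log2 differences were 2.85 and 3.05 in NW and 2.75 and 3.29 in NWS, so the gap was present with and without the morpholino. No permutation test of 2 samples against 2 can go below p = 0.333. Fewer epidermal cells and less epidermal RNA per cell cannot be told apart in these bulk libraries.

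Among the regulators, grhl3.S, a grainyhead-like factor that drives the epidermal barrier programme, was at 51.8, 13.4, 71.9 and 18.7 CPM in set 1 and at 0.343, 0, 0.116 and 0 CPM in set 3, libraries in the order given above. Every set 1 library was above every set 3 library, on 5 counts in all of set 3. The log2 fold change was 7.85 ± 1.21 (SE, edgeR adjusted p = 0.00164). Its relative grhl1.L stood at 11.2, 28.8, 16.9 and 36.6 CPM against 0, 0.917, 0.931 and 0 CPM, again with no overlap (5.38 ± 1.09, edgeR adjusted p = 0.0232). The copy grhl1.S had a log2 fold change of 4.18 ± 1.28 and did not pass (edgeR adjusted p = 0.255). A further epithelial factor, klf4.L, passed at 5.22 ± 0.98 (edgeR adjusted p = 0.0126), with 86.3 and 66.4 CPM in NWS and 6.60 and 13.8 CPM in NW of set 1 and at most 1.65 CPM in set 3.

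The basal epidermal factor tp63 behaved differently from the grhl genes. tp63.L was at 14.7 and 10.01 CPM in the NW libraries of set 1 and at 14.0 and 16.5 CPM in those of set 3, which overlap. In NWS it was at 76.7 and 77.6 CPM in set 1 and had no counts in set 3, where 3 counts are worth 2.75 and 2.47 CPM. The copy tp63.S (LOC399036) had the same layout, with 76.7 and 54.5 CPM in NWS of set 1, 0 in NWS of set 3, and 7.21 to 11.4 CPM in the 4 NW libraries. Neither passed (log2 fold changes of 2.77 ± 1.62 and 2.77 ± 1.58, edgeR adjusted p = 0.880 and 0.873).

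The keratins build the intermediate filaments of epithelial cells. krt12.S was at 363, 165, 315 and 213 CPM in set 1 against 3.86, 1.83, 5.47 and 0.824 CPM in set 3, on the log2 scale a difference of 6.52 ± 0.88 (edgeR adjusted p = 0.000440). krt.S was at 313, 482, 438 and 471 CPM against 22.8, 45.9, 19.5 and 41.2 CPM (3.69 ± 0.76, edgeR adjusted p = 0.0257). In both entries all 4 libraries of set 1 exceeded all of set 3, with NW above NWS for krt12.S in set 1 and below it for krt.S. krt.L and krt5.7.L passed likewise, at 4.69 ± 0.84 and 3.88 ± 0.76 (edgeR adjusted p = 0.00843 and 0.0177). Outside the list, both copies of the epidermal keratin xk81a1 passed, xk81a1.S at 7.76 ± 1.09 and xk81a1.L at 3.75 ± 0.77 (edgeR adjusted p = 0.000561 and 0.0252).

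Not every keratin had this pattern. krt12.L (3.86 ± 1.14), krt18.S (2.95 ± 0.92) and krt5.7.S (2.74 ± 0.76) had no overlap between the sets but did not pass (edgeR adjusted p = 0.223, 0.290 and 0.161). krt8.S had 1.82 ± 0.71 (edgeR adjusted p = 0.623), with 20.6 to 125 CPM in set 1 and 7.45 to 44.9 CPM in set 3. krt8.L, a simple-epithelium keratin, was at 11.3 to 35.8 CPM in set 1 and 16.5 to 36.7 CPM in set 3, ranges that overlap almost wholly, with a log2 fold change of -0.04 ± 0.73.

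**Figure D2:**
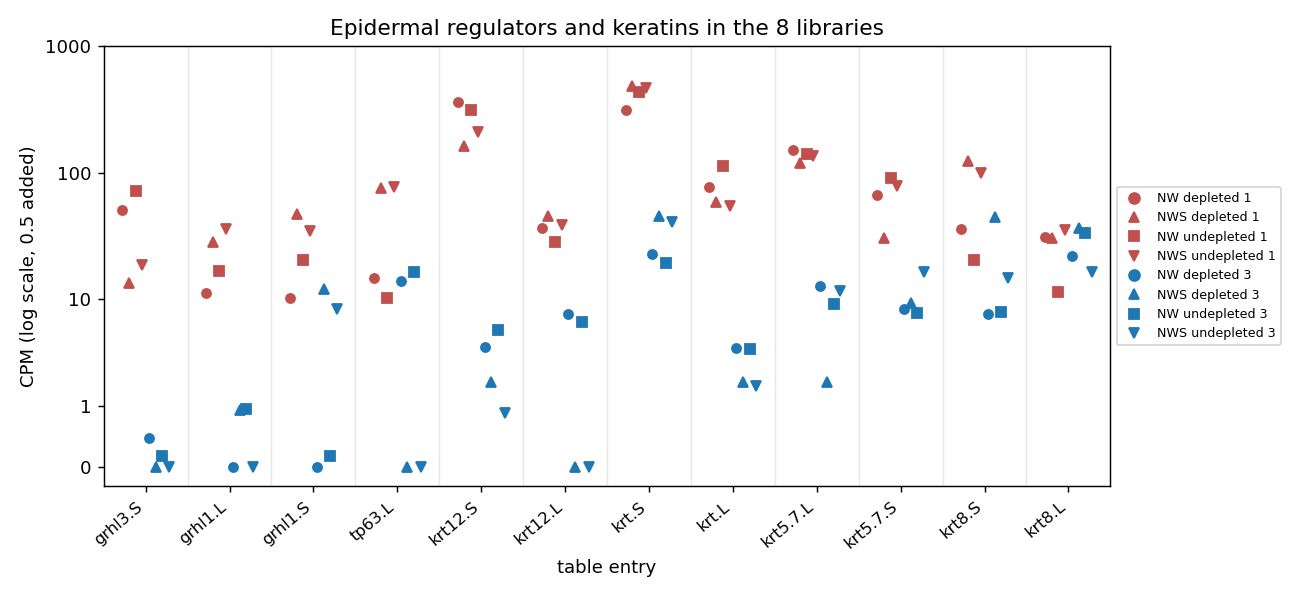
CPM (log scale, 0.5 added) of 12 epidermal entries in the 8 libraries, red for set 1 and blue for set 3, with circles for NW depleted, squares for NW undepleted, and triangles pointing up and down for NWS depleted and undepleted. The sets are apart for grhl3.S, grhl1.L and most keratins, tp63.L is apart in NWS alone, and krt8.L overlaps.

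Genes of cell junctions and of the barrier surface were also among the 60, named here by their known role after their values were seen. Other entries of the 60 were not picked for this role, among them syt13.S, gad1.2.S, stxbp5.S, akap9.S and utrn.L. ppl.S encodes periplakin, a desmosome-linked plakin, and was at 103, 46.0, 91.3 and 22.4 CPM in set 1 against 0, 0.917, 0 and 0 CPM in set 3. Its set 3 level rests on 1 count, and the ratio of summed rates was 1672 with a 95% exact interval of 298 to 66185 for counting error. The other copy, ppl.L, had no counts in set 3 and was at least 10.5-fold higher in set 1, set against a floor of 3 counts per library. Cornifelin, a protein of the cornified surface, was represented by cnfn.1.L at 16.8, 17.3, 59.4 and 9.70 CPM against 0.428, 0, 0 and 0 CPM (7.13 ± 1.29, edgeR adjusted p = 0.00912). esrp1.S, which directs epithelial splice forms, was at 44.7, 24.9, 33.2 and 39.5 CPM against 1.97, 0, 0.931 and 0.824 CPM (5.08 ± 0.98, edgeR adjusted p = 0.0148). The sets did not overlap in any of these 4 entries. Further epithelial entries that passed were myo5c.L, a myosin of secretory epithelia, the villin-like gene vill.S and fam83h.S, whose product binds keratin filaments. Of the alternatives that tested them, vill.S passed in 17 of 21 (adjusted p up to 0.579) and fam83h.S in 14 of 21 (up to 0.566). The epithelial cadherin gene cdh1.L was at 4.38 to 20.9 CPM in set 1 and 0 to 0.917 CPM in set 3 and did not pass (6.72 ± 1.62, edgeR adjusted p = 0.0712).

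A goblet cell gene and a hatching gland gene were high in set 1 as well, as were 3 related astacin-like entries named after their values were seen. otog.L encodes otogelin, a mucin-like protein that marks goblet cells of frog skin, and was the sole entry tested of 14 in the list of goblet and small secretory cells. It was at 226, 69.1, 328 and 97.7 CPM in set 1 and 0.428, 10.1, 0.116 and 5.77 CPM in set 3 (6.41 ± 1.33, edgeR adjusted p = 0.0268). In set 1 the NW libraries were above the NWS ones, and in set 3 the reverse, though all of set 1 stayed above all of set 3. The matched log2 differences were 7.93 and 9.06 in NW and 2.72 and 3.97 in NWS.

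The hatching gland secretes astacin proteases that free the tadpole from its membrane. Its hatching enzyme gene uvs.2.L was the sole entry tested of 10 for cement and hatching gland, and joined that list by a spelling taken from entry names. It was at 32.0, 0, 25.0 and 9.70 CPM in set 1 and had no counts in set 3, at least 11.4-fold higher on the same floor. Depleted NWS library 1, the shallowest, thus had none either. It did not pass with DESeq2 (adjusted p = 0.645). The related astacin-like entry astl2e.2.L (LOC494813) was at 34.5, 24.9, 35.7 and 35.1 CPM against 0 in all set 3 libraries, at least 22.3-fold higher, and like uvs.2.L it did not pass with DESeq2 (adjusted p = 0.388). astl2f.S (LOC108715236) was at 49.3, 13.4, 85.7 and 61.2 CPM against 0, 0, 0.582 and 0 CPM (8.13 ± 1.11, edgeR adjusted p = 0.000440). Another such gene, astl2d.3.L (LOC108713776), passed with 120 counts in set 1 and 1 in set 3. It lies next to astl2e.2.L on chromosome 4L in the gene order of RefSeq assembly Xenopus_laevis_v10.1, and reads of such near copies may be shared between them.

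Of the 63 entries 42 have a gene symbol. The entry with the lowest p was the unnamed LOC108705316, at 664, 340, 514 and 370 CPM in set 1 and 0.257, 0, 0.349 and 0.824 CPM in set 3 (10.44 ± 1.1, edgeR adjusted p = 6.95e-05). LOC108718284 was at 57.9, 7.67, 109 and 14.9 CPM against 1 count in set 3, and LOC108716195 at 112, 24.9, 119 and 61.2 CPM against 0, at least 54.3-fold higher, the latter not passing with DESeq2 (adjusted p = 0.293). In neither did the sets overlap. By the same gene order LOC108716195 and LOC108705316 are 2 genes apart on chromosome 5L. Whether such neighbours share reads was not tested.

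Other entries picked by the size of their difference were xa-1.L and reps2.L. xa-1.L was at 48.3, 55.6, 62.5 and 73.1 CPM in set 1 and at most 0.465 CPM in set 3 (7.35 ± 1.06, edgeR adjusted p = 0.000726). reps2.L, an endocytosis adaptor gene, was at 11.2 to 41.9 CPM in set 1 and rested on 2 counts in set 3. Its ratio of summed rates was 260 (95% exact interval 70.5 to 2170).

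This frog is an allotetraploid, so many genes have an L and an S copy (homeologs). Of the 42 passing entries whose symbol ends in L or S, 28 had the other copy in the table and 20 of those copies were tested. All 20 had the same sign. The 8 that passed are the pairs of krt, xk81a1, ppl and atp13a-like, counted from both sides and so already among the 42. No other tested copy passed. How often copies share a sign over all tested entries was not counted. Reads may be divided between copies, so a pair is not 2 independent results. Among the copies that did not pass, vill.L had a log2 fold change of 4.27, esrp1.L 2.38 and fam83h.L 0.77.

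In the other direction 3 entries passed. pdk4.S encodes a kinase that shuts off pyruvate dehydrogenase, and was at 1.52, 0, 3.75 and 3.73 CPM in set 1 and 15.4, 97.2, 19.8 and 110 CPM in set 3 (-4.05 ± 0.91, edgeR adjusted p = 0.0464). All of set 3 stood above all of set 1, and NWS above NW within set 3. LOC108703072 was at 0 to 1.25 CPM in set 1 and 20.7 to 60.2 CPM in set 3 (-6.05 ± 1.16, edgeR adjusted p = 0.0145), and col22a1-like.2.L had 1 count in set 1 and 9.34 to 32.2 CPM in set 3. Next in order of p, and not passing, came LOC108704569 (-3.51 ± 0.81, edgeR adjusted p = 0.0537), cep83.S, vgll3.L and post3.S (LOC108703074), the last 3 at edgeR adjusted p = 0.0685, 0.0712 and 0.0712.

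Neural plate border genes leaned to set 3 in NW but not in NWS, without passing. The median matched log2 differences were -0.60 and -0.90 in NW and 0.06 and 0.02 in NWS (depleted and undepleted). Of 23 tested entries of that list 16 had a log2 fold change below 0 and 7 above, with a median of -0.47, and 0 passed; the 8-library fit passed 2, both lower in set 1, DESeq2 1 and limma-voom 0, and 3 had an unadjusted edgeR p under 0.05. Over all entries the 8-library fit passed 2.79%, DESeq2 151 of 11005 and limma-voom 96 of 11931, and 6.19% had an unadjusted edgeR p under 0.05. The 2 border entries of the 8-library fit were the copies of the homeobox gene msx2, which acts at the border downstream of BMP. msx2.S was at 14.2, 34.5, 9.38 and 26.9 CPM in set 1 and 90.5, 137, 80.7 and 113 CPM in set 3 (-2.56 ± 0.73, edgeR adjusted p = 0.186), and msx2.L at 34.0, 61.4, 23.8 and 56.0 against 119, 196, 125 and 141 CPM (-1.89 ± 0.69, edgeR adjusted p = 0.541). In both, every set 3 library lay above every set 1 library. The same held for the Notch-related repressor hes4.L, at 30.7 to 75.4 CPM in set 1 and 90.7 to 195 CPM in set 3 (-1.18 ± 0.68, edgeR adjusted p = 0.877). The border gene tfap2a.S pointed the other way, at 1.79 ± 0.81 (edgeR adjusted p = 0.764), with 4.59 and 24.7 CPM in NWS of set 3 against 111 to 229 CPM in the other 6 libraries.

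**Figure D3:**
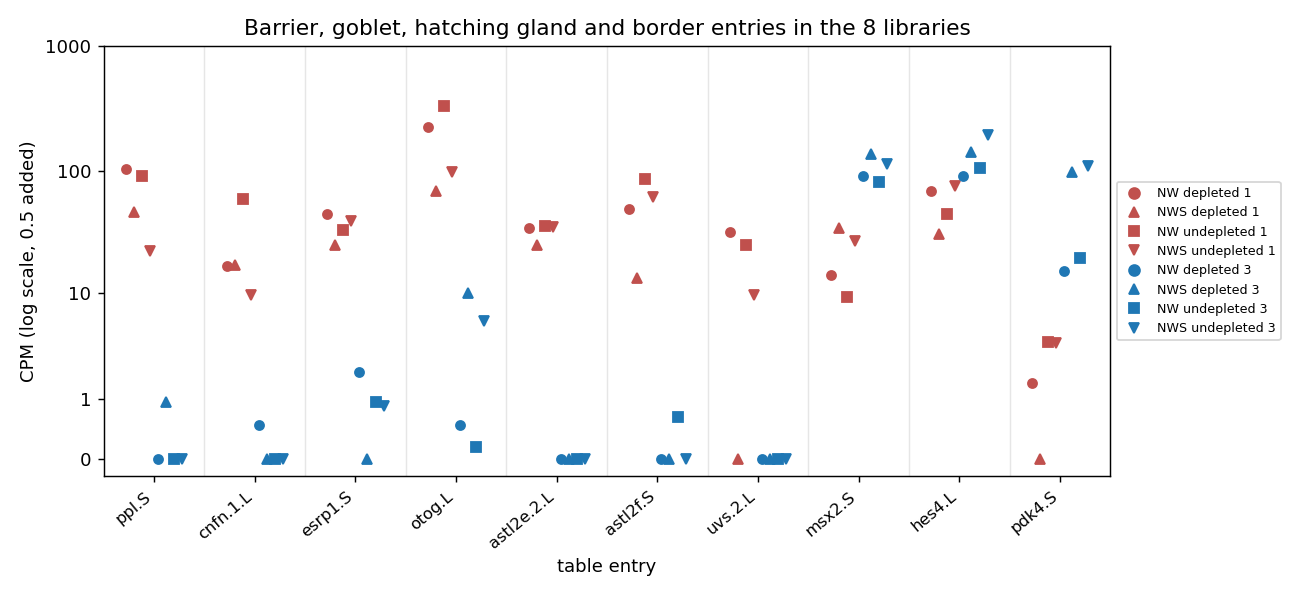
CPM (log scale, 0.5 added) in the 8 libraries for 3 barrier or epithelial entries, the goblet entry otog.L, the hatching gland entry uvs.2.L with 2 astacin-like entries, and msx2.S, hes4.L and pdk4.S, with colours and symbols as in the plot of epidermal entries. Set 1 is above set 3 for the first 7, except that uvs.2.L is at 0 in depleted NWS library 1, and set 3 is above set 1 for the last 3.

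Neural crest specifiers, the factors that define crest cells, went opposite ways in NW and NWS by list median and sum. Of 24 tested entries 18 were above and 6 below 0, and the median difference was 1.21 (log2), with 0 passing in either edgeR fit, with DESeq2 or with limma-voom. At an unadjusted edgeR p under 0.05 there were 3 of the 24, twist1.L, ets1.L and sox5, against 6.19% of all tested entries. All 3 were higher in set 1 in both treatments and both preparations, unlike the list median. Their matched log2 differences were 0.11 to 0.85 in NW and 3.45 to 5.68 in NWS. The median matched log2 differences were -0.58 and -0.61 in NW but 2.54 and 3.41 in NWS, each in the order depleted and undepleted. Summed over the list, NW stood at 2050 and 2078 CPM in set 1 and 3192 and 3496 CPM in set 3, and NWS at 2042 and 2510 CPM in set 1 and 1070 and 1045 CPM in set 3. Set 1 thus had similar summed levels with and without the morpholino, and set 3 had the highest sums in NW and the lowest in NWS. The complement gene c3.L, not itself such a factor, weighs on these sums. It made up 645 and 688 CPM in NWS of set 3. In set 1 it was at 281 and 218 CPM (NW) and 637 and 692 CPM (NWS). Single members differed within set 1: ets1.L was lower in NWS than in NW, and foxd3.L was higher. With 1 sample for each treatment and number, this difference between the treatments could not be tested.

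The 5 factors named next were lowest in NWS of set 3, but only some leaned to set 3 in NW. There sox10.S, foxd3.L and snai2.L were higher in set 3. In NW, ets1.L (matched log2 differences of 0.24 and 0.24) and twist1.L (0.85 and 0.23) were slightly higher in set 1. sox10.S, a master regulator of crest, stood in set 1 at 99.1 and 156 CPM (NW) and at 61.4 and 48.5 CPM (NWS), and in set 3 at 171 and 176 CPM (NW) and at 0 (NWS). foxd3.L was at 46.2 to 88.8 CPM in the 4 libraries of set 1, at 66.4 and 84.2 CPM in NW of set 3, and at 2.75 and 5.77 CPM in NWS of set 3. The NWS libraries of set 3 were again lowest for ets1.L (4.59 and 4.95 CPM), snai2.L (23.8 and 17.3 CPM) and twist1.L (0.917 and 4.12 CPM), which in the other 6 libraries were at 110 to 229, 125 to 252 and 36.7 to 66.6 CPM. Their fitted log2 fold changes of 1.22 to 2.26 therefore average unlike differences, and edgeR adjusted p was between 0.754 and 0.932 for these 5. Other entries of the list kept a level in NWS of set 3: the complement gene c3.L was at 645 and 688 CPM there, and snai1.L at 65.1 and 60.2 CPM against 15.6 to 47.8 CPM in set 1. The epidermal level in NWS of set 3, given above, was as low as in NW of set 3.

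**Figure D4:**
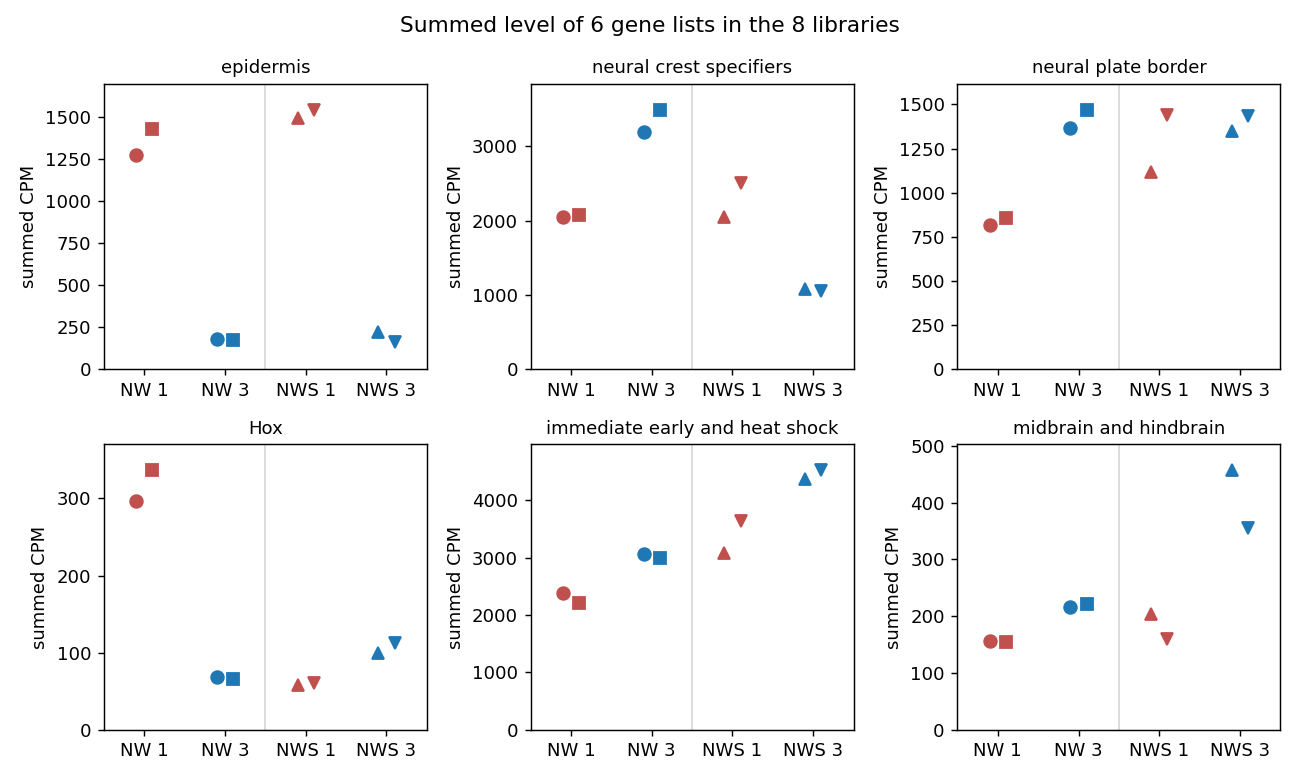
Summed CPM of all entries of 6 gene lists (vertical axes from 0) by treatment and library number, with the depleted library left and the undepleted library right in each pair, red for set 1 and blue for set 3. The epidermal sum is higher in set 1 in both treatments, while the crest and Hox sums differ between sets in ways that depend on the treatment.

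Hox genes, which set position along the trunk, had the reverse layout. Their summed level in set 1 was 297 and 337 CPM (NW) and 57.6 and 60.4 CPM (NWS), and in set 3 it was 67.9 and 65.8 CPM (NW) and 100 and 112 CPM (NWS). NW of set 1 stood above the other 6 libraries. Of 62 entries 17 were tested, 14 above 0 with a median of 1.39, and 0 passed in either edgeR fit, with DESeq2, with limma-voom or at an unadjusted p under 0.05. hoxa7.L, for example, was at 8.64 and 30.6 CPM in NW of set 1 and 14.7 and 6.60 CPM in NWS of set 3, with no counts in the other 4 libraries. hoxc6.S was present in the same libraries, at 18.3 and 8.76 and at 8.26 and 11.5 CPM, and absent from the same 4.

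Some genes of the early stress response were high in the NWS libraries of set 3. Of 26 tested immediate early and heat shock entries 18 were below 0 in log2 fold change, with a median of -0.41. With edgeR on summed counts, DESeq2 or limma-voom 0 passed. At an unadjusted edgeR p under 0.05 there were 2 (7.69%, against 6.19% of all tested entries). The 8-library fit passed 1 higher and 1 lower, against 2.79% of all entries in that fit. jun.L, a subunit of the AP-1 transcription factor, was at 147 and 158 CPM in NWS of set 3 and at most 4.06 CPM elsewhere. Its relative jund.S was at 159 and 233 CPM there and at 0.746 to 29.5 CPM elsewhere. Summed over the list, set 1 was at 2376 and 2212 CPM (NW) and 3087 and 3635 CPM (NWS), and set 3 at 3068 and 2994 CPM (NW) and 4379 and 4522 CPM (NWS). NWS of set 3, the libraries with the lowest crest levels, were thus the highest, and the part of stress in the crest levels was not tested.

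Midbrain and hindbrain genes were below 0 in 7 of 7 tested entries, with a median of -1.09. Over all tested entries 48.7% were above 0. Summed, they were at 155 to 203 CPM in set 1 and 215 to 457 CPM in set 3, which do not overlap; meis3.S had -1.5 ± 0.69 (edgeR adjusted p = 0.780). Neural progenitor genes had a median of -0.31 over 16 entries, crest migration genes -0.41 over 17, neuronal genes -0.21 over 13, cell cycle genes -0.29 over 37 and pluripotency and ventral factors -1.05 over 8, with 0 passing in each by edgeR on summed counts, DESeq2 or limma-voom. The 8-library fit, which passed 2.79% of all entries, passed 2 crest migration entries, both lower in set 1. These were the guidance receptor genes nrp1.L, at 23.1 to 71.6 CPM in set 1 and 93.2 to 187 CPM in set 3, and epha4.L, at 32.5 to 47.8 and 81.1 to 147 CPM, neither with overlap. At an unadjusted edgeR p under 0.05 there were 1 midbrain and hindbrain, 2 crest migration, 2 neuronal and 1 pluripotency entries, all lower in set 1, and 0 neural progenitor or cell cycle entries. Of BMP-responsive genes 13 were tested (median -0.09) and of Wnt-responsive genes 19 (median 0.56), and 0 of either passed by any of these tools or at an unadjusted p under 0.05. Their sums went opposite ways in the treatments, a difference that was not tested. BMP-responsive entries were at 423 and 493 CPM (NW) and 261 and 356 CPM (NWS) in set 1, and at 734 and 955 CPM (NW) and 199 and 162 CPM (NWS) in set 3. Wnt-responsive entries were at 263 and 275 CPM (NW) and 595 and 633 CPM (NWS) in set 1, and at 343 and 370 CPM (NW) and 388 and 383 CPM (NWS) in set 3. Genes of multiciliated cells, another cell type of frog skin, had a median of -0.21 over 13 tested entries of 43. Their sums were 81.3 to 138 CPM in set 1 and 114 to 191 CPM in set 3, without the gap of the keratin group.

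Adhesion and matrix genes had a median of 0.16 over 19 tested entries. Of these 0 passed with edgeR on summed counts. Both copies of cdh1 had an unadjusted edgeR p under 0.05 (10.5%, against 6.19% of all tested entries). In addition, 1 each passed with DESeq2, limma-voom and the 8-library fit. Over all entries these passed 151 of 11005, 96 of 11931 and 298 of 10681. The adhesion entry of the 8-library fit was the fibronectin gene fn1.S, a matrix component. It was at 164 to 384 CPM in set 1 and 52.8 to 99.8 CPM in set 3 without overlap (1.5 ± 0.74, edgeR adjusted p = 0.824). Of 126 ribosomal protein genes tested 84 (66.7%, against 48.7% of all tested entries) were above 0, with a median of 0.26. With edgeR on summed counts 0 passed, and 4 (3.17%, against 6.19%) had an unadjusted edgeR p under 0.05. DESeq2 and limma-voom passed 1 each, against 151 of 11005 and 96 of 11931 over all entries. The 8-library fit passed 7, against 2.79% of all entries. One of these, rps12.L, was at 369 to 1121 CPM in set 1 and 48.6 to 94.7 CPM in set 3 (3.1 ± 0.75, edgeR adjusted p = 0.0744).

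Few markers of other tissues could be tested. Of the lists for early mesoderm, for organizer and notochord, for muscle, heart and blood, for endoderm and for ionocytes, 1 entry each could be tested and 0 passed with edgeR, DESeq2 or limma-voom. Muscle, heart and blood entries summed to 84.3 and 51.9 CPM in NW of set 1, and to 1.97 to 11.5 CPM in the other 6 libraries. Early mesoderm entries summed to 41.7 and 21.9 CPM (NW) and 0 and 3.73 CPM (NWS) in set 1, and to 3.08 and 1.51 CPM (NW) and 26.6 and 42.0 CPM (NWS) in set 3, opposite ways in the treatments. Endoderm entries summed to at most 24.9 CPM in any library. Of 26 forebrain and eye entries 2 were tested, of 20 placode entries 4 and of 14 maternal and germ plasm entries 2, with 0 passing by the same tools. At an unadjusted p under 0.05 there were the early mesoderm entry t.S, at 0 in set 1 and 0.814 to 15.7 CPM in set 3, and otx2.L, at 3.84 to 8.95 CPM in set 1 and 0 to 2.47 CPM in set 3. Of all tested entries 6.19% had such a p.

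**Figure D5:**
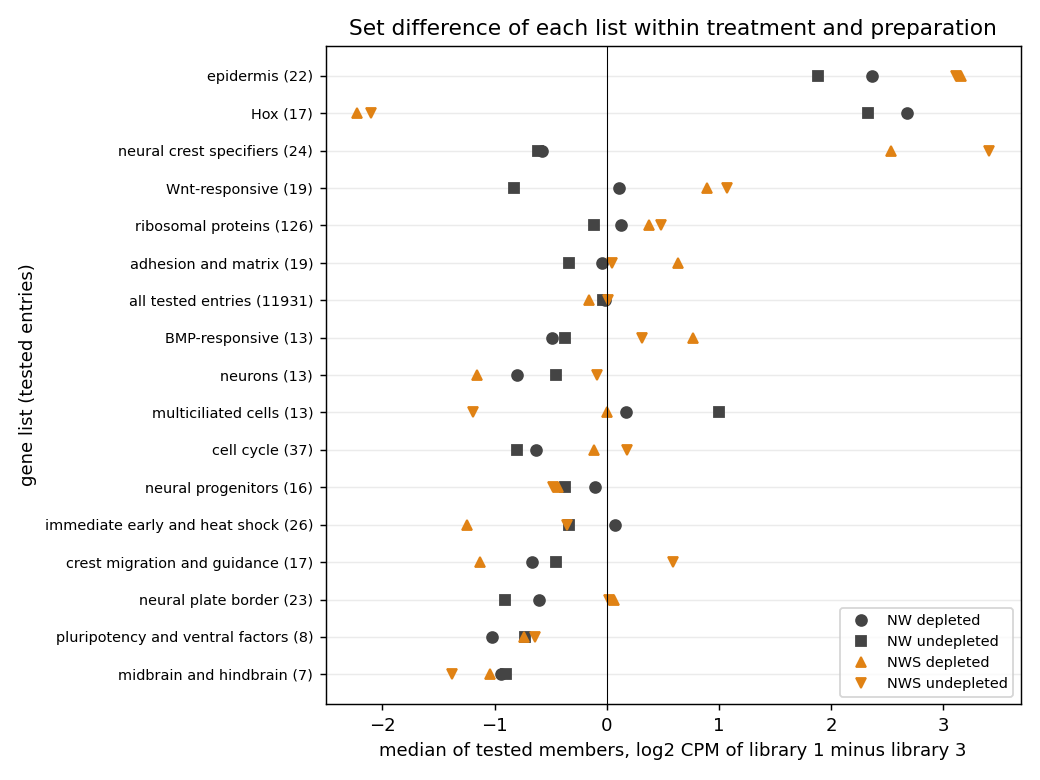
Median over the tested members of each list of the log2 CPM of library 1 minus library 3, for NW (grey) and NWS (orange), depleted and undepleted, with the number of tested entries in brackets; the reported lists with at least 5 are drawn. The epidermal list lies at 1.89 to 3.16 in all 4 comparisons, the crest list is below 0 in NW and above 0 in NWS, and the Hox list is the reverse.

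None of the targeted and injected genes passed the test between the sets. sf3b4.L had a log2 fold change of 0.05 ± 0.83 and sf3b4.S of 0.51 ± 0.86 (edgeR adjusted p = 0.999 for both), and neither checks a morpholino that may leave mRNA unchanged. nog.L was at 4.80 to 24.4 CPM in the 4 NW libraries and 13.4 to 70.1 CPM in the NWS libraries, with NW lower and NWS higher in set 3 than in set 1 (0.23 ± 0.83, edgeR adjusted p = 0.999). wnt8a.L was at 0.508 and 0 CPM (NW) and 5.76 and 11.9 CPM (NWS) in set 1, and at 1.88 and 1.86 CPM (NW) and 31.2 and 28.0 CPM (NWS) in set 3 (-1.99 ± 1.01, edgeR adjusted p = 0.831). It was thus higher in set 3 in all 4 matched pairs, on 0 and 1 count in NW of set 1. wnt8a.S was too low to test, with no counts in set 1 and 3, 6, 0 and 1 counts in set 3. Endogenous and injected messages cannot be told apart in these entries, so the dose each explant received was not measured.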

How the data were processed

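RNA-seq libraries of 4 groups (NW and NWS, depleted and undepleted) were used for library numbers 1 and 3. The authors deposited 1 table of raw counts for each preparation, already summed over lanes, and FPKM tables, which were not used here. The submitters' processing notes name STAR, featureCounts, bcl2fastq and DESeq2. Build, annotation, strandedness and the handling of multi-mapping reads: not given in the sources used here. Titles and source names number the undepleted NWS lanes differently, and titles were followed. Of the 49109 entry names 25709 match symbols of RefSeq assembly Xenopus_laevis_v10.1, and 3698 LOC entries got another symbol by gene ID.

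Depleted and undepleted counts of a name were summed. edgeR 4.0.16 in R 4.3.3 used TMM, filterByExpr by library number (minimum count of 10), a quasi-likelihood fit with treatment and number, which leaves 1 residual degree of freedom so that the spread is largely shared across entries, and Benjamini-Hochberg adjusted p under 0.05. The filter keeps entries that are high in one set alone. CPM are counts scaled to the TMM effective size of each library, and matched log2 differences add 0.5 CPM. DESeq2 1.42.0, limma 3.58.1, other scalings, filters, single preparations, separate libraries, all 6 samples, summed homeologs, omitted dominant entries and left-out libraries were alternatives. The code was tested on data simulated with 1 spread for all entries. There the edgeR test called 12% of entries with a simulated log2 change of 3 and 5.13% at -3. At 5 it called 62% and at -5 it called 50%. A list with 0 passing entries therefore does not show equal levels in the sets. Lists are described by counts and medians with no list test, and 1 list is not reported here. The comparison, its members and the gene lists were chosen with earlier results of these data known; spellings added to the epidermal and hatching gland lists came from entry names. Named entries are sf3b4, nog and wnt8a, up to 12 a direction by size of change among passing entries with a mean of at least 10 CPM and 1 sign in all 4 matched differences (at most 3 without a symbol), up to 6 by p where fewer passed, and up to 4 by level and 4 by p from each reported list; other names were chosen after values were seen. Figures used Python 3.11.15 and matplotlib 3.10.9.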

Additional observations from a re-analysis of the deposited data

Results flagged for a closer look

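The set difference in the summed level of neural crest specifiers had opposite signs in the treatments, negative in both preparations of NW (log2 differences of -0.64 and -0.75) and positive in both preparations of NWS (0.93 and 1.26), a gap of -1.79 between the treatment means. The difference was not tested, since there is 1 sample for each treatment and number.

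The summed level of Hox genes was higher in set 1 in both preparations of NW (2.12 and 2.35) and lower in both preparations of NWS (-0.79 and -0.89), a gap of 3.07. This difference was not tested either. The sums of BMP-responsive genes (-0.79 and -0.95 in NW, 0.39 and 1.13 in NWS, a gap of -1.63) and of Wnt-responsive genes (-0.38 and -0.43 in NW, 0.62 and 0.72 in NWS, a gap of -1.07) also had opposite signs, and these differences were not tested. The multiciliated cell sum was slightly higher in set 1 in NW (0.05 and 0.20) and lower in NWS (-1.06 and -1.23), a gap of 1.27 that was also not tested. Lists with fewer than 5 tested entries were not looked at in this way. Some genes belong to more than 1 list, so the lists are not independent of each other.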

How the results depend on the processing

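No paired analysis was possible because the comparison is between the library numbers themselves; treatment, which matches the sets within NW and NWS, is in the fit as reported. All entries that passed kept their sign wherever they were tested, and 33 (without the treatment term; also with depleted libraries alone, which tested 46 of them) to 63 still passed. The count of 63 passing entries became 118 with no low-count filter, 151 with DESeq2, 96 with limma-voom, 298 and 520 with 8 libraries without and with a duplicate correlation, 33 without the treatment term and 106 with homeologs summed. The 60 higher entries became 106, 129, 94, 222, 424, 32 and 92 in that order, and 39 with a minimum count of 30. Leaving out 1 library gave 69 to 120 passing and 64 to 99 higher entries, the most without NW depleted library 1 (120) and NWS depleted library 3 (119). The share of higher calls fell from 95.2% to 74.5% with 8 libraries, 85.4% with DESeq2, 82.2% with undepleted libraries alone and 81.5% with a duplicate correlation. With no filter the median of all entries was -0.44. Leaving out a sample leaves no test. The epidermal median was 2.1 to 3.29 over all settings. The crest median was -0.77 without an NWS sample and 3.02 without NW sample 1, and the border median -0.05 without an NW sample. The BMP median was -0.55 without an NWS sample and 1.24 without NW sample 1, and the Wnt median -0.34 and 1.04 likewise. The Hox median was -6.86 without NW sample 1, -5.26 without NW sample 3 and 2.17 without an NWS sample. Without an NW sample the set difference rests on NWS, where entries such as hoxa7.L had no counts in set 1. The fitted size of such entries has no bound. With 0.5 CPM added, the matched Hox medians in NWS were -2.22 (depleted) and -2.10 (undepleted). Signs also changed for other lists. Without an NWS sample the medians were 0.07 (immediate early and heat shock), 0.42 (multiciliated), -0.28 (adhesion and matrix) and -0.07 (ribosomal proteins). Without an NW sample the cell cycle median was 0.27. Of named entries, krt.S passed in 21 of 22 alternatives that tested it, grhl1.L, klf4.L and otog.L in 20 of 22, cnfn.1.L in 20 of 21, ppl.L in 16 of 17, reps2.L in 19 of 21, pdk4.S in 19 of 22 and col22a1-like.2.L in 16 of 22, with adjusted p of at most 0.0556, 0.0681, 0.0599, 0.133, 0.219, 0.0574, 0.0681, 0.115 and 0.565 in that order. Without NWS undepleted library 1, 48 of 60 tested entries still passed. Depth limits low entries: 1 count in the shallowest library is over 1 CPM.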

Other observations

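The 4 libraries numbered 2, which were not compared and entered only the alternative fit of all 6 samples, had 93 to 271 counts in the epidermal list. On a scale set over all 12 libraries these came to 272, 208, 305 and 152 CPM (NW depleted, NWS depleted, NW undepleted, NWS undepleted), where set 1 had 695 to 842 CPM and set 3 86.0 to 121 CPM. Crest specifiers were at 408 to 617 CPM in the libraries numbered 2, where set 1 had 1114 to 1370 CPM, NW of set 3 1743 and 1908 CPM, and NWS of set 3 584 and 571 CPM.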
